A study of Mus musculus with 15 samples.

Results

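The genes described here are 10 immediate early genes of mouse microglia: Fos, Fosb, Jun, Junb, Jund, Atf3, Egr1, Nr4a1, Ier2 and Ier5. They were chosen by exact symbol, and all 10 were found among the 24421 gene rows of each of the 3 deposited count tables. Immediate early genes are switched on by existing signalling proteins within minutes of a stimulus, without new protein synthesis. Proteins of the Fos and Jun families pair into the transcription factor AP-1, which binds DNA at the TPA response element and, with ATF family partners, at the cyclic AMP response element. In microglia, the macrophages that live in brain tissue, these genes are known to respond to injury and also to the enzymatic digestion used to release the cells from tissue.

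Microglia were sorted as CD45(int)CD11b(int) cells from the digested forebrain of male mice aged 8 to 24 weeks, and bulk RNA was sequenced. Ischemia was made by blocking the middle cerebral artery for 60 min, followed by reperfusion; sham mice had the surgery without the block. The wild-type C57BL/6J libraries, 1 each, came from sham mice and from mice on days 1, 6, 14 and 28 after the stroke. Igf1-Egfp transgenic mice, which report on the gene for insulin-like growth factor, were sorted by EGFP state after the occlusion, with 1 library per state from day 6 and likewise from day 14. Yy1-deleted mice (Cx3cr1-CreER;Yy1flox/flox) gave 3 libraries on day 6, against 3 from Yy1flox/flox mice, which carry the same floxed alleles but no Cre. Cx3cr1-CreER is an inducible Cre that can act in any cell expressing Cx3cr1 while the Cre is active, so monocyte-derived cells may carry the deletion too. The labels name separate biological replicates and do not give the number of animals in a library.

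The libraries held 10528327 to 52618224 counts, and between 9886 (wild-type day 28) and 17321 (wild-type day 1) genes had a count. All 10 homeostatic microglia markers were detected in all 15 libraries. Their summed level was lowest in wild-type day 1 (9024 CPM) and, among the wild-type libraries, highest in sham (35422 CPM). Levels are CPM, the counts of a gene relative to the library total, scaled by the trimmed mean of M values (TMM) within a table, and can be compared only within one. Fewer cells of a type and less RNA per cell cannot be told apart in these bulk samples.

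Promoter sequence from RefSeq (GRCm38.p6) was found for 8 of the 10 genes; Egr1 and Ier2 had no entry. Those of Fos, Nr4a1 and Atf3 are shown because Fos and Nr4a1 rose after Yy1 deletion and all 3 hold the TGACG core of the cyclic AMP response element in the window shown. Each is the 150 bases before the RefSeq start, 5′ to 3′ on the gene's strand, with TGACG (or CGTCA, the same core on the other strand) and, in Nr4a1, the Egr family site GCGNGGGCG (on the other strand) in capitals. Fos lies at chr12:85473740-85473889 on the plus strand, Nr4a1 at chr15:101266696-101266845 on the plus strand and Atf3 at chr1:191183334-191183483 on the minus strand.
Fos: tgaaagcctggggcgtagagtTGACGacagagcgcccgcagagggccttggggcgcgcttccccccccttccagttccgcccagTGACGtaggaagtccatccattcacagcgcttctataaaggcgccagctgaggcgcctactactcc
Nr4a1: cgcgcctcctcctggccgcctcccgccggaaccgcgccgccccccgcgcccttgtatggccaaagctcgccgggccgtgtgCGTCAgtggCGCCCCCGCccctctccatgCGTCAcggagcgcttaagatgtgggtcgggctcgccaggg
Atf3: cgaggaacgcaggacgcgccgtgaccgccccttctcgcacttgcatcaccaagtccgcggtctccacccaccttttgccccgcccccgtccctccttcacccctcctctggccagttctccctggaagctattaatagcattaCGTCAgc

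Over the 250 bases before the start, searched on both strands, the TGACG core was present in 5 of the 8 promoters (Fos, Fosb, Junb, Nr4a1 and Atf3) and in 17.8% of all 32851 RefSeq mouse promoters. In Fos it lay at -129 and -66, counting its first base from the start, and in Atf3 at -7. Nr4a1 had it at -233, -213, -69 and -40. The Egr site GCGNGGGCG was present in Fosb and Nr4a1 (2 of 8, against 4.70% of all promoters). The TPA response element TGANTCA, the YY1 site AANATGGC and the serum response CArG box had no match in these 8 windows, and were present in 6.75%, 3.91% and 1.47% of all promoters. These are letter matches in a short window, not measured binding. A site outside the 250 bases would be missed, so no match does not mean that a gene lacks the site. For Jund the window ends at chr8:70697738, upstream of the gene start at 70698949 in GENCODE M21. The Nr4a1 and Atf3 windows lie inside the GENCODE M21 genes. These start at chr15:101254269 (Nr4a1) and, on the minus strand, at chr1:191218039 (Atf3). The RefSeq starts used for these 2 genes are thus not their outermost starts.

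Across the wild-type libraries, the 10 genes together took 0.904% of all counts in sham and 0.687%, 1.02%, 1.59% and 2.03% on days 1, 6, 14 and 28. The genes did not move as 1 block. On day 1 Nr4a1 and Atf3 were higher than in sham while Jun and Jund were lower, and on days 14 and 28 the same 7 genes were higher, with Jun, Jund and Ier5 not among them under the TMM scaling used here. With 1 library per time point these differences have no replicate check; a gene is called higher or lower by size alone, at an absolute log2 ratio of 1 or more on log2(CPM + 1) values with at least 20 CPM in either library.

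**Figure D1:**
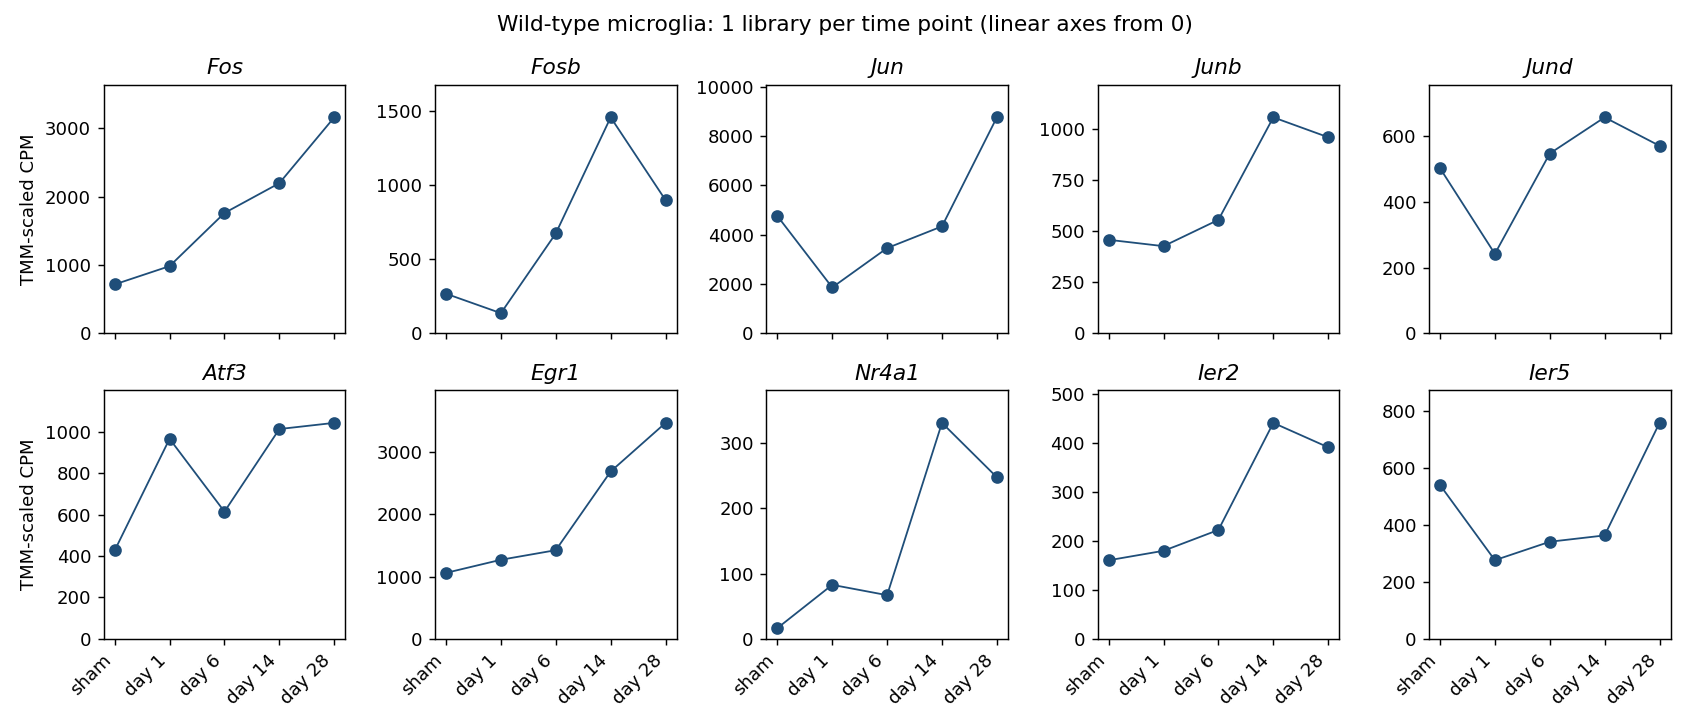
TMM-scaled CPM (linear vertical axes from 0) of the 10 genes in wild-type microglia from sham and days 1, 6, 14 and 28 after stroke; each point is 1 library. Fos and Egr1 are highest on day 28, Fosb, Nr4a1, Junb and Ier2 on day 14, and Jun, Junb, Jund, Fosb and Ier5 have their lowest point on day 1.

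Fos, the founding member of the Fos family, had 718 CPM in sham and 985, 1762, 2199 and 3161 CPM on days 1, 6, 14 and 28. Each later library was above the one before, and the day 28 level was 4.40-fold that of sham (95% interval 4.35 to 4.46, for counting error only, taking each count as 1 read). Fosb, whose splice form ΔFosB is long-lived, had 268 CPM in sham and 137, 675, 1459 and 900 CPM on days 1, 6, 14 and 28. It was thus lowest on day 1 and highest on day 14, with log2 ratios to sham of -0.96, 1.33, 2.44 and 1.74.

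Jun, the main Jun family partner, had 4762 CPM in sham and 1865, 3460, 4340 and 8757 CPM on days 1, 6, 14 and 28. On day 1 Jun was past the size rule (log2 ratio -1.35). On day 28 it was above sham by 0.88, within the rule, but by 1.00 and just past it under median-ratio scaling, which makes 8 genes higher. Jund, the Jun family member that is usually present in resting cells, had 501 CPM in sham and 242, 546, 656 and 569 CPM on days 1, 6, 14 and 28. It passed the size rule on day 1 (-1.05), a call that total-count scaling removes (-0.98). Junb, known as a weaker activator than Jun, had 459 CPM in sham and 428, 557, 1059 and 962 CPM on days 1, 6, 14 and 28, and was past the size rule on days 14 (1.20) and 28 (1.07). Atf3, a stress-induced member of the ATF family, had 427 CPM in sham and 965, 614, 1012 and 1042 CPM on those days. It was higher on day 1 (1.18), day 14 (1.24) and day 28 (1.29).

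Nr4a1, an orphan nuclear receptor, had the lowest level of the 10 per kilobase of exon in sham and the widest fold range. Its 16.6 CPM in sham stood against 82.8, 67.0, 331 and 247 CPM on days 1, 6, 14 and 28. The day 14 level was 19.9-fold that of sham (95% interval 18.6 to 21.4), and the log2 ratios on the 4 days were 2.25, 1.95, 4.24 and 3.82. Egr1, a zinc finger transcription factor, had 1061 CPM in sham and 1271, 1425, 2687 and 3468 CPM on days 1, 6, 14 and 28, so that every stroke library was above sham. Ier2 had 161 CPM in sham and 180, 223, 441 and 391 CPM; like Junb, it was past the size rule on days 14 (1.45) and 28 (1.28). Ier5, a regulator of heat shock factor, had 541 CPM in sham and 277, 342, 364 and 759 CPM, and stayed within the size rule at each time.

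By count, 2 of the 10 genes were higher and 2 lower than sham on day 1, where 12.5% and 10.6% of all 7203 genes considered were. On day 6, 3 were higher (Fos, Fosb and Nr4a1) and 0 lower, against 10.6% and 2.90% of all genes. Day 14 had 7 higher and 0 lower, against 22.6% and 20.2% of all genes, and day 28 likewise had 7 and 0, against 27.0% and 24.0%. The median log2 ratio of the 10 genes was 0.03, 0.45, 1.29 and 1.28 on days 1, 6, 14 and 28, beside -0.00, -0.09, -0.03 and 0.15 for all genes considered. These 4 comparisons share the sham library.

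Other genes of the same programme were counted by the same rule. Of the other immediate early genes considered, 8 of 22 were higher and 3 lower on day 1, 6 of 22 higher and 0 lower on day 6, 15 of 26 higher and 2 lower on day 14, and 12 of 22 higher and 0 lower on day 28. Gadd45b, a stress response gene, had log2 ratios to sham of 3.24, 2.00, 4.16 and 3.11 on the 4 days. Nr4a2, the close relative of Nr4a1, had a log2 ratio of 5.08 on day 14 and 4.32 on day 28. Of the other AP-1 genes, 2 of 8, 1 of 7, 3 of 7 and 1 of 6 were higher on days 1, 6, 14 and 28. Fosl2 was among these on each day, with log2 ratios of 2.45, 1.56, 3.13 and 2.40, and Jdp2 (1.69) on day 1. Atf2 was lower on day 28 (-3.85). Of genes known as AP-1 targets, 7 of 9 were higher on day 1, led by Cd44 (6.61), 4 of 7 on day 6, 3 of 7 on day 14 and 5 of 8 on day 28. The gene lower on day 14 was Plau (-1.20), and the median of this list was 0.27 on that day. Of the upstream kinases and factors, 2 of 18, 1 of 18, 3 of 19 and 5 of 19 were higher on days 1, 6, 14 and 28, and 2, 0, 3 and 2 lower.

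Other lists moved with the same libraries. The summed level of the 8 heat shock genes was 2796 CPM in sham and 3503, 1939, 2227 and 6637 CPM on days 1, 6, 14 and 28; 6 of the 8 were higher on day 28. Neutrophil markers other than Csf3r, which had signal in every library, summed to 49.7 CPM in sham and 2200, 388, 11.1 and 2365 CPM on days 1, 6, 14 and 28, with Cxcr2, Ltf, Mmp8 and Ngp at 0 on day 14. The 10 monocyte markers summed to 61.6 CPM in sham and 1613, 1434, 2148 and 2150 CPM, with Hp at 0 in sham and F10 at 0 on day 14. Those with at least 20 CPM in sham or the stroke library numbered 5, 2, 1 and 9 on days 1, 6, 14 and 28, and all were higher. The monocyte sums thus rest mostly on 2 genes on day 6 and on 1 gene on day 14. The 12 endothelial and mural markers summed to 274 CPM in sham and 749, 3416, 5970 and 31.4 CPM. The 7 dendritic cell markers summed to 6.52 CPM in sham, against 486 CPM on day 28 and at most 20.5 CPM in the other stroke libraries. Of the 10 homeostatic microglia markers 9, 4, 10 and 7 were lower than sham on days 1, 6, 14 and 28. Their part in the levels of the 10 genes was not tested.

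On day 6 the EGFP-positive library had lower levels than the EGFP-negative one for all 10 genes, and 9 of 10 passed the size rule, where 11.9% of all 7252 genes considered were lower and 7.53% higher. The genes took 0.278% of all counts in the EGFP-positive and 0.792% in the EGFP-negative library. The median log2 ratio was -1.46, beside -0.04 for all genes.

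Fos had 685 CPM in EGFP-positive against 1754 CPM in EGFP-negative cells (log2 ratio -1.35), and Jun had 1175 and 3097 CPM (-1.40). Junb stood at 136 CPM in EGFP-positive against 513 CPM in EGFP-negative cells (-1.91), Jund at 123 against 354 CPM (-1.51) and Atf3 at 283 against 863 CPM (-1.60). Nr4a1, at 37.1 CPM in EGFP-positive against 237 CPM in EGFP-negative cells, had the largest ratio of the 10 (-2.64), followed by Ier2 at 60.1 against 254 CPM (-2.06). These were the 2 genes with a log2 ratio below -2. Egr1 was at 360 CPM in EGFP-positive against 945 CPM in EGFP-negative cells (-1.39) and Ier5 at 148 against 354 CPM (-1.26). Fosb, at 166 against 305 CPM, was lower by less than the size rule asks (-0.87).

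The EGFP-negative library of day 6 stood apart in its marker genes. The 8 neutrophil markers without Csf3r summed to 156 CPM in EGFP-positive against 11500 CPM in EGFP-negative cells, the 10 monocyte markers to 1121 and 4969 CPM, and the 7 dendritic cell markers to 6.10 and 297 CPM, with Retnlg, Ccr7, Cd209a, Flt3 and Xcr1 at 0 in EGFP-positive cells. The 7 border-associated macrophage markers went the other way, with 670 CPM in EGFP-positive against 468 CPM in EGFP-negative cells. Of the 4 considered, 2 were higher in EGFP-positive cells and 0 lower. The homeostatic microglia sums were 9796 CPM in EGFP-positive against 10574 CPM in EGFP-negative cells. Heat shock genes summed to 1702 CPM in EGFP-positive against 3358 CPM in EGFP-negative cells, and 4 of the 7 considered were lower. Of the other immediate early genes 18 of 24 were lower, and of genes known as AP-1 targets 5 of 9, led by Il1b (-7.12) and Mmp9 (-7.03).

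With the wild-type day 6 library in place of the EGFP-negative one, all 10 genes were lower in EGFP-positive cells and 9 passed the size rule, where 11.6% of all genes were lower. That library had 388 CPM of neutrophil markers without Csf3r and 1434 CPM of monocyte markers, and 3416 CPM of endothelial and mural markers against 544 CPM in EGFP-positive cells. Its border-associated macrophage markers summed to 64.4 CPM, against 670 CPM in EGFP-positive cells. The homeostatic microglia markers summed to 18699 CPM in wild-type against 9796 CPM in EGFP-positive cells. Fosb was at 166 CPM in EGFP-positive against 675 CPM in wild-type cells (log2 ratio -2.02), and Jund at 123 and 546 CPM (-2.14). Nr4a1, the gene with the largest ratio to EGFP-negative cells, was here the one within the size rule, at 37.1 CPM in EGFP-positive against 67.0 CPM in wild-type cells (-0.83). Both comparisons use the same EGFP-positive library, so they are not independent, and wild-type and Igf1-Egfp mice differ in genotype.

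**Figure D2:**
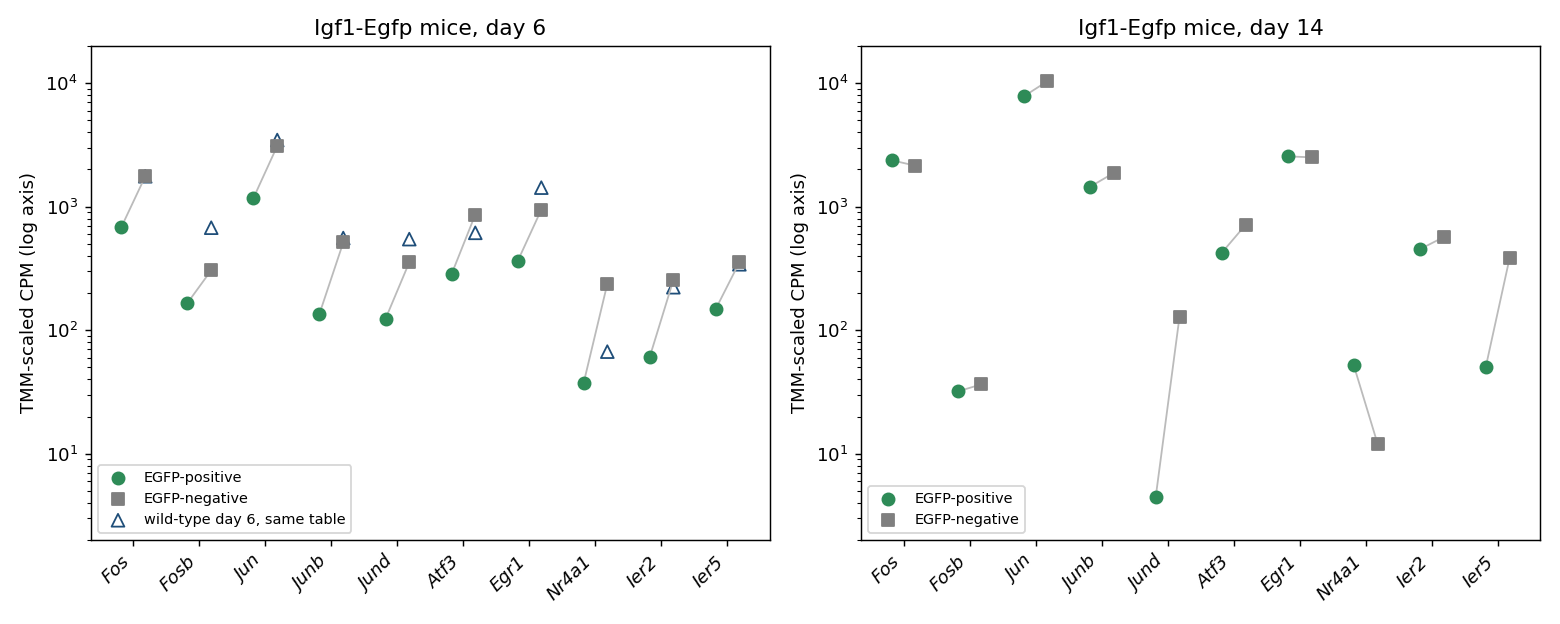
TMM-scaled CPM on a log axis in EGFP-positive (circles) and EGFP-negative (squares) microglia of Igf1-Egfp mice on day 6 and day 14, with wild-type day 6 as triangles; each symbol is 1 library, and levels compare only within a panel. On day 6 every circle is below its square. On day 14 Jund and Ier5 have the widest gaps, and Nr4a1 and, by a small gap, Fos and Egr1 have the circle above the square.

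On day 14 the pattern was another one: Jund and Ier5 were lower in EGFP-positive cells, Nr4a1 was higher, and the other 7 genes stayed within the size rule. Over all 7085 genes considered, 10.9% were lower and 11.2% higher. Jund had 4.49 CPM in EGFP-positive against 129 CPM in EGFP-negative cells, a log2 ratio of -4.56 (fold 0.0349, 95% interval 0.0283 to 0.0426, counting error only). Ier5 had 50.7 CPM in EGFP-positive against 383 CPM in EGFP-negative cells (-2.90). Nr4a1 had 51.8 CPM in EGFP-positive against 12.1 CPM in EGFP-negative cells (2.02).

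Jun had 7803 CPM in EGFP-positive against 10376 CPM in EGFP-negative cells on that day (-0.41), and Junb at 1444 and 1868 CPM (-0.37). Fos was at 2374 and 2145 CPM (0.15), Fosb at 31.9 and 36.4 CPM (-0.18) and Atf3 at 423 and 712 CPM (-0.75). So within the Jun family Jund was lower by the size rule and Jun and Junb were not. Egr1 was at 2553 CPM in EGFP-positive against 2507 CPM in EGFP-negative cells (0.03, and -0.08 when scaled by total counts), and Ier2 at 452 and 566 CPM (-0.32).

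The median of the 10 genes on day 14 was -0.35, beside 0.03 for all genes. Neutrophil markers without Csf3r summed to 1090 CPM in EGFP-positive against 0.157 CPM in EGFP-negative cells, where 7 of these 8 were at 0. Endothelial and mural markers summed to 486 CPM in EGFP-positive against 30.7 CPM in EGFP-negative cells, with 8 of 8 considered higher and a median log2 ratio of 5.41. Monocyte markers summed to 567 and 108 CPM, with 6 of 10 at 0 in EGFP-negative cells and the 2 considered both higher. Heat shock genes summed to 2441 CPM in EGFP-positive against 3652 CPM in EGFP-negative cells. Other immediate early genes were mostly within the size rule, with 1 of 22 higher and 4 lower, among them Plk3 (-2.68) and Klf2 (-2.20). Their part in the ratios of the 10 genes was not tested.

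Over both days in 1 edgeR quasi-likelihood fit, with day as a term and each EGFP state's 2 libraries as its replicates, 0 of the 10 genes and 0% of the 12842 genes tested were called at a Benjamini-Hochberg adjusted p of 0.05, and 193 genes had an unadjusted p below that value. limma-voom called 0 as well, and DESeq2 called 31 genes, Jund among them (adjusted p = 0.0496). The edgeR estimate for Jund was a log2 fold change of -3.16 (SE 1.07) and for Ier5 -2.09 (SE 0.56), EGFP-positive over EGFP-negative. Nr4a1, with its opposite signs on the 2 days, had -0.29 (SE 1.66). The 2 libraries of a state differed in day, count table and sequencing instrument. A change in a gene's EGFP ratio between the days was therefore treated as replicate error. With 2 libraries per state, little was left to estimate that error. The 0 calls thus cannot decide whether EGFP state changed these genes.

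In the Yy1 comparison, the only one with 3 libraries per group, Fos and Nr4a1 rose after the deletion in edgeR and the other 8 genes did not pass that test. DESeq2 called 4 of the 10 genes, adding Egr1 (adjusted p = 0.00494) and Ier5 (0.00342), and limma-voom called 5, adding Egr1 (0.00225), Ier5 (0.0291) and Junb (0.0433). Over all genes and in either direction, DESeq2 called 746 of 16110 and limma-voom 481 of 12387, against 322 of 12387 in edgeR. The targeted gene itself had 32.4, 28.8 and 38.6 CPM in Yy1-deleted and 75.9, 51.0 and 57.8 CPM in floxed libraries. All 3 deleted libraries were below all 3 floxed ones, with a log2 fold change of -0.88 that did not pass (edgeR quasi-likelihood test, adjusted p = 0.128). YY1 is a zinc finger transcription factor that can activate or repress its targets.

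**Figure D3:**
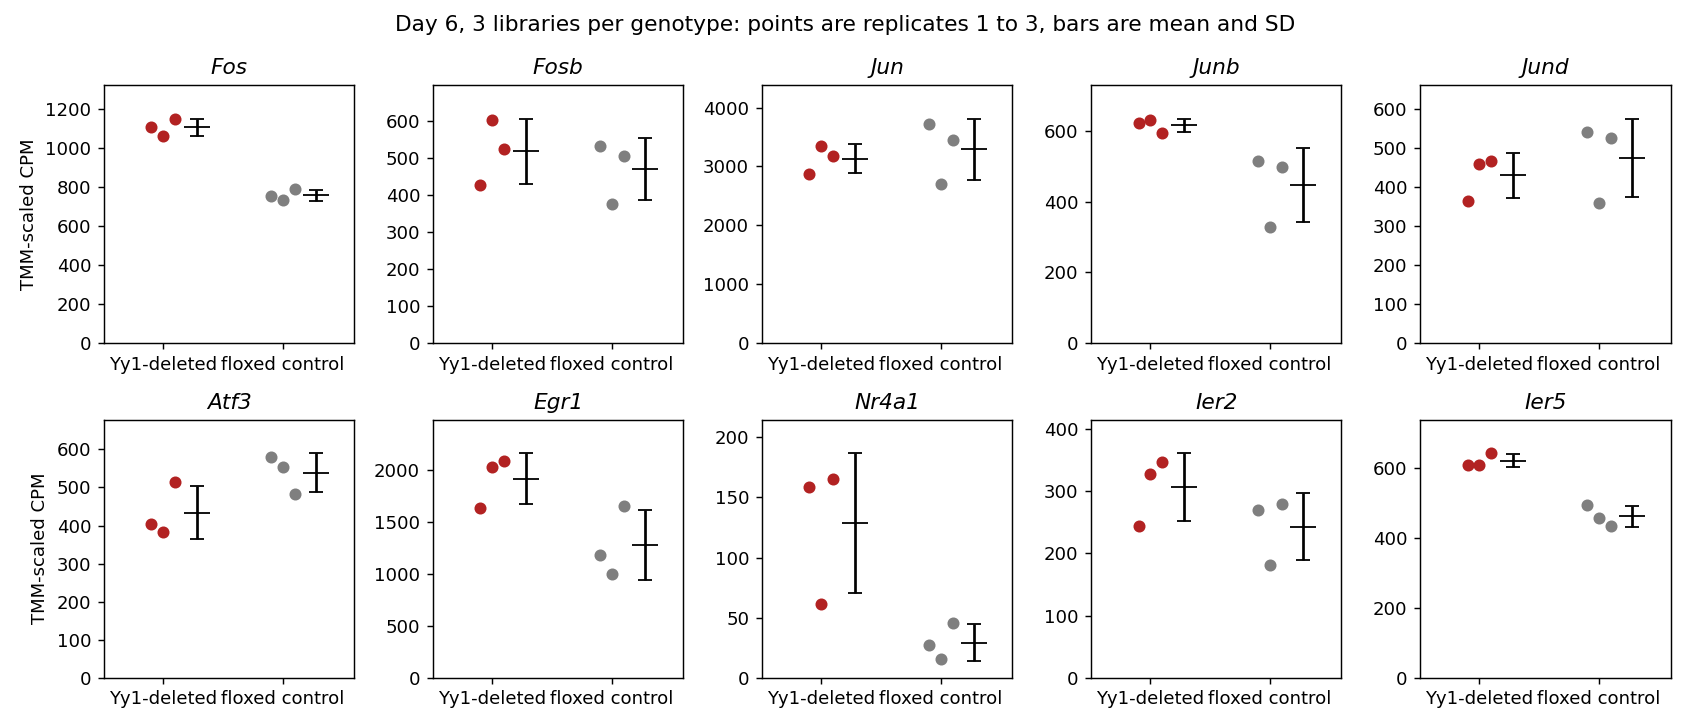
TMM-scaled CPM (linear axes from 0) of the 10 genes in 3 Yy1-deleted and 3 floxed day 6 libraries; points are replicates, horizontal ticks with bars are mean and SD. Fos, Nr4a1, Junb and Ier5 have all Yy1-deleted points above all floxed points, and the other 6 genes overlap.

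Fos had 1108, 1063 and 1150 CPM in Yy1-deleted and 753, 732 and 789 CPM in floxed libraries. The groups did not overlap and replicates lay close together, at 1107 ± 43.8 CPM in Yy1-deleted and 758 ± 28.4 CPM in floxed microglia (SD, n = 3 each). Fos thus rose by a log2 fold change of 0.55 (SE 0.11; edgeR quasi-likelihood test, adjusted p = 0.0120). The call was lost without floxed replicate 1 (adjusted p = 0.0955, edgeR), without floxed replicate 2 (0.0699) and without deleted replicate 3 (0.0607).

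Nr4a1 had 159, 61.7 and 165 CPM in Yy1-deleted and 27.0, 15.1 and 45.7 CPM in floxed libraries. The lowest deleted library, replicate 2, was still above the highest floxed one. The means were 129 ± 58.1 CPM in Yy1-deleted and 29.2 ± 15.4 CPM in floxed microglia (SD, n = 3 each), with a log2 fold change of 2.14 (SE 0.39; edgeR, adjusted p = 0.00513). The call was lost without floxed replicate 1 (edgeR, adjusted p = 0.0936). Over 6 libraries a permutation test of a single gene cannot go below p = 0.1, and both genes reached that value (exact, two-sided).

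Among the 10 genes, 2 rose and 0 fell, where 1.55% of the 12387 genes tested rose and 1.05% fell. In 4 of the 10 the groups did not overlap, all with the deleted libraries higher, as were 9.45% of all genes tested (11.6% had the deleted libraries lower). Ier5 had 610, 610 and 642 CPM in Yy1-deleted and 494, 456 and 434 CPM in floxed libraries (log2 fold change 0.43, SE 0.12, edgeR adjusted p = 0.0835). Junb had 623, 632 and 595 CPM in Yy1-deleted and 516, 328 and 500 CPM in floxed libraries (0.46, SE 0.16, edgeR adjusted p = 0.163). Egr1 had 1639, 2032 and 2087 CPM in Yy1-deleted and 1181, 998 and 1658 CPM in floxed libraries, with floxed replicate 3 above deleted replicate 1 (0.59, SE 0.16, edgeR adjusted p = 0.0621).

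The other 5 genes overlapped between the groups. Jun averaged 3128 ± 247 CPM in Yy1-deleted and 3289 ± 524 CPM in floxed microglia, and its log2 fold change of -0.07 had a 95% interval of -0.30 to 0.16. Jund (-0.14, interval -0.47 to 0.19), Fosb (0.14, interval -0.18 to 0.46), Ier2 (0.34, interval -0.03 to 0.70) and Atf3 (-0.31, interval -0.59 to -0.02) had adjusted p of 0.812, 0.805, 0.471 and 0.352 in edgeR. The median over the 10 genes was 0.38, beside -0.02 for all genes tested.

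Other immediate early genes did not share one direction: of 28 tested, Sgk1, a kinase gene also induced by glucocorticoids, rose (0.72, edgeR adjusted p = 0.00162), while the Krüppel-like factor genes Klf6 (-0.70, adjusted p = 0.00275) and Klf4 (-0.69, adjusted p = 0.0322) fell. Of the other AP-1 genes 0 of 11 were called in edgeR, and of the upstream kinases and factors Mapk3, which encodes ERK1, rose (0.84) and Elk4, a serum response partner, fell (-0.89) among 21. Of genes known as AP-1 targets 1 of 10 was called, Cd44, the hyaluronan receptor, at 18.3 CPM in Yy1-deleted and 65.6 CPM in floxed microglia (log2 fold change -1.84, edgeR adjusted p = 0.00280).

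Heat shock genes also differed between the genotypes. Of the 8, 4 rose and 0 fell: Hspa1b (2.10), Hsph1 (1.97), Hspa1a (1.08) and Hspa8 (0.62). Hspa1a and Hspa1b are near-identical copies between which reads are hard to divide. The summed level of the 8 genes was 3738, 2296 and 3452 CPM in Yy1-deleted and 1847, 1780 and 2131 CPM in floxed libraries. All 10 homeostatic microglia markers rose, with sums of 24487 to 26524 CPM in Yy1-deleted and 15318 to 16529 CPM in floxed libraries. Of 8 neutrophil markers tested 1 rose, and the median log2 fold change was -0.03. That marker was Csf3r, at 988 ± 140 CPM in Yy1-deleted and 533 ± 57.5 CPM in floxed microglia (SD, n = 3 each); the 8 markers left without Csf3r summed to 245 to 378 CPM in Yy1-deleted and 306 to 341 CPM in floxed libraries, with Cxcr2, Mmp8 or Retnlg at 0 in some. Monocyte sums were 621 to 733 CPM in Yy1-deleted and 845 to 1221 CPM in floxed libraries, and 1 of 9 tested fell. Their part in the Fos and Nr4a1 differences was not tested.

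**Figure D4:**
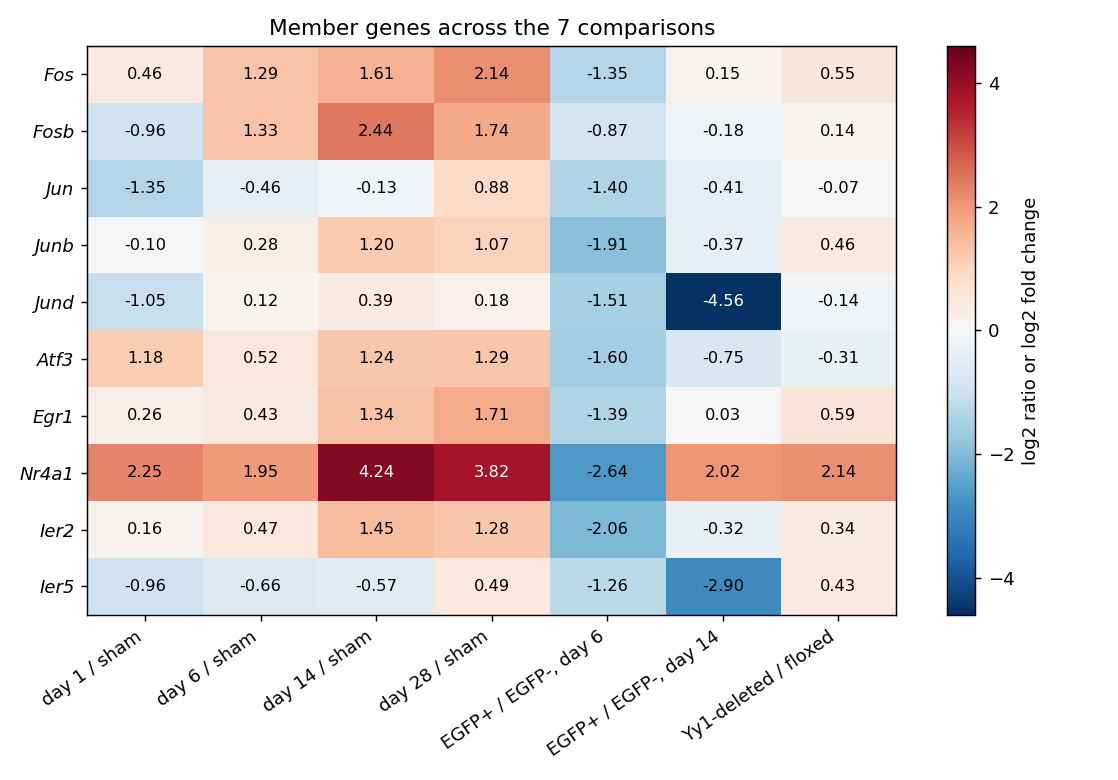
log2 ratio (first group over second; log2 fold change from edgeR for Yy1) of each gene in the 7 comparisons, printed in each cell; red is higher and blue lower in the first group. Nr4a1 is 1.95 or more in each comparison except EGFP state on day 6, where it is -2.64.

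The balance of Fos and Jun was compared per length, as CPM per kilobase of exon. Jun had the highest level of the 10 genes per kilobase in each of the 15 libraries, with 25.3% (wild-type day 1) to 50.5% (EGFP-negative day 14) of their sum. The ratio of Fos to Jun per kilobase was 0.204 in sham and 0.716, 0.691, 0.687 and 0.489 on days 1, 6, 14 and 28, so sham had the lowest of the 5. On day 6 the ratio was 0.791 in EGFP-positive and 0.768 in EGFP-negative cells, although both genes were lower in EGFP-positive cells. On day 14 it was 0.413 in EGFP-positive and 0.280 in EGFP-negative cells.

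In the Yy1 table the Fos to Jun ratio per kilobase was 0.525, 0.430 and 0.492 in Yy1-deleted and 0.275, 0.367 and 0.310 in floxed libraries. The groups did not overlap, with means of 0.482 ± 0.0483 in Yy1-deleted and 0.317 ± 0.0467 in floxed microglia (SD, n = 3 each). An exact two-sided permutation test gave p = 0.1, the smallest possible with 3 against 3.

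**Figure D5:**
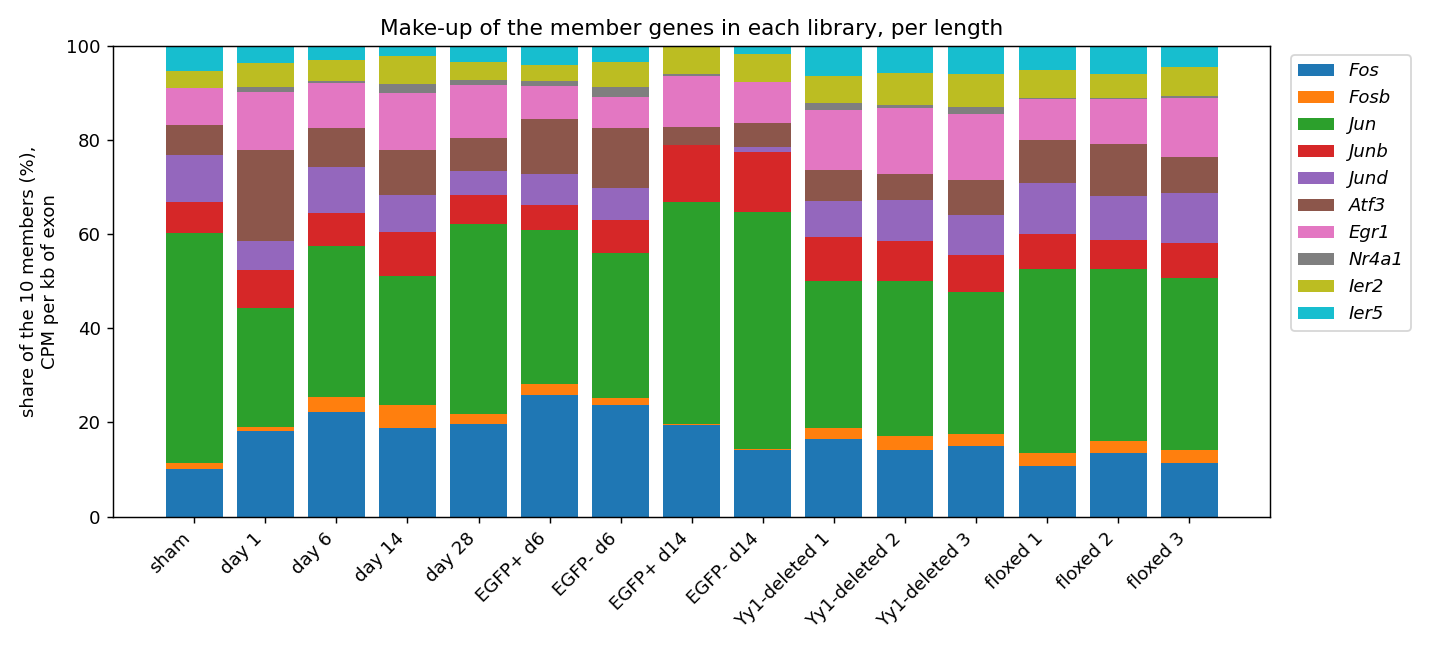
Share of each gene in the summed level of the 10 genes (CPM per kilobase of exon, percent, bars from 0 to 100) in each of the 15 libraries. Jun is the largest part everywhere, and Fos is a larger part in each stroke library of the wild type (18.1% to 22.1%) than in sham.

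Across the 7 libraries of the time course and day 6 reporter table, the genes whose pattern was most like each member were sought among 9364 genes, as the smallest root mean square difference of centred log2(CPM + 1) values. The 7 libraries differ in depth and share this table. Junb and Ier2 were each other's nearest gene, with a difference of 0.14 beside standard deviations of 0.97 for Junb and 0.95 for Ier2. Both lie on chromosome 8 with 312 kb between them (GRCm38). Nearest to Atf3 were Nfkbia (0.21), an inhibitor of NF-κB, Rabgap1l (0.23) and Nfkbiz (0.24), and nearest to Fos was Nfkbid (0.24). Zfp36, which encodes an mRNA decay factor, was among the 3 nearest genes of Ier2 (0.22), and Btg2 (0.27) was among those of Jund.

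Jun, Ier5 and Egr1 had Usp35 (0.18), Tmco6 (0.15) and Jmjd6 (0.23) as their nearest genes, Jund had Lag3 (0.25), Nr4a1 had Helz2 (0.31) and Fosb had Agrn (0.42). Nr4a1 and Fosb, the 2 genes with the widest variation (standard deviations of 1.57 and 1.28), had the largest differences to their nearest genes. The difference is not scaled by a gene's own variation, so it does not show that their nearest genes matched less well. Some of these counts can hold reads of another gene. In GENCODE M21 the exons of Junb overlap those of Prdx2 on the opposite strand by 173 bases, and Jun and Jund overlap the antisense genes Junos (232 bases) and Gm11175 (543 bases); whether the counting used strand is not given in the sources used here.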

How the data were processed

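Per the submitters' processing notes, STAR, featureCounts and edgeR were used with the mm10 and GRCm38 builds; their roles and versions are not given in the sources used here. Of the deposited files, the time course with day 6 reporter table and the day 14 reporter table hold raw read counts per gene. The Yy1 table holds expected counts that are not all whole, as deposited by the authors, with 3.55% to 4.75% of values not whole; they were rounded. Day 14 reporter libraries were sequenced on another instrument than the rest, per the labels' protocols. In tables of whole counts, 68.7% to 90.9% of genes with low counts had an even count, so the counting intervals may be too narrow.

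Counts were scaled by TMM within each table (edgeR 4.0.16, R 4.3.3). Single libraries were compared by log2(CPM + 1) ratios, with exact binomial 95% intervals for the fold of CPM without the added 1. The Yy1 groups were tested with filterByExpr and edgeR's quasi-likelihood test, adjusted by Benjamini-Hochberg over all genes tested; DESeq2 1.42.0, limma-voom (limma 3.58.1), other scalings, filters, thresholds, a replicate block and leaving out each replicate were alternatives. The script was tested on simulated data. All 10 genes are named in each comparison, with up to 4 genes per further list with the largest change past the threshold and the 3 nearest genes. Positions are GRCm38 (GENCODE M21). Members and lists were chosen with earlier results of these data known, and the Fos to Jun ratio, the comparison with wild-type day 6 and the neutrophil sum without Csf3r were added after the values were seen.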

Additional observations from a re-analysis of the deposited data

Results flagged for a closer look

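The genes below had EGFP-positive over EGFP-negative log2 ratios of opposite sign on day 6 and day 14. Each ratio rests on 1 library per state and the difference between the days was not tested. Nr4a1 had -2.64 on day 6 and 2.02 on day 14. Fos had -1.35 on day 6 and 0.15 on day 14, and Egr1 had -1.39 on day 6 and 0.026 on day 14. For Fos and Egr1 the day 14 ratio was within the size rule, and that of Egr1 was below 0 when scaled by total counts.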

How the results depend on the processing

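With a size rule of 2 on the log2 scale, 1 gene was higher and 0 lower on day 1, 0 were higher on day 6, 2 on day 14 and 2 on day 28, and 2 were lower in EGFP-positive cells on day 6. All genes higher and lower then numbered 403 and 144 on day 1 (901 and 766 by the rule of 1), 443 and 6 on day 6 (751 and 206), 1008 and 534 on day 14 (1773 and 1581) and 845 and 1158 on day 28 (2058 and 1829). The EGFP comparison then had 82 and 267 on day 6 (546 and 862) and 257 and 203 on day 14 (795 and 772). A minimum of 5 CPM raised these counts, to 2314 and 3799 on day 28, and 50 CPM lowered them, to 1303 and 786 there. With total counts as the scaling, 1 gene (Jun, not Jund) was lower on day 1, and Jun on day 14 (-0.13) was 0.04 above sham under median-ratio scaling. For Yy1, 4 of the 10 genes were called by DESeq2 and 5 by limma-voom, and leaving out 1 replicate gave 0 to 3 of 10; Jun (-0.07) ranged over these fits from -0.19 to 0.0303, above 0 without floxed replicate 1. EGFP state over both days had 1 gene called by DESeq2. Egr1 passed for Yy1 under 5 of 13 alternatives and Ier5 under 2. Over all genes, edgeR called 192 higher and 130 lower, against 127 and 193 with total counts, 309 and 266 without a filter, 380 and 366 in DESeq2 and 289 and 192 in limma-voom; leaving out floxed replicate 1 left 58 and 39. Under the replicate block, Egr1 was called (adjusted p = 0.00346, edgeR) and 413 genes in place of 322. Same-numbered deviations correlated at -0.0076, -0.048 and -0.015, and no sample correlated best with its own number. The numbers were therefore not taken as pairs. Median-ratio scaling moved the median of all genes by 0.17 on day 14 and 0.12 on day 28, and total counts by 0.11 on day 14 and -0.10 for EGFP on day 14. Low detection on days 14 and 28 (11823 and 9886 genes with a count) and single libraries limit the time course. The day 14 reporter libraries, also 1 per state, had 12498 (EGFP-positive) and 10892 (EGFP-negative) genes with a count. The same limit thus holds for their ratios, that of Jund among them.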
